A study of Mus musculus with 7 samples.

Results

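The annexins are a family of proteins that bind phospholipid membranes when the level of calcium rises. Most of them lie free in the cytosol until calcium brings them to a membrane, where they bridge membranes, gather at wounds of the plasma membrane or shield exposed phosphatidylserine, the lipid that marks dying cells. In liver, hepatocytes, bile duct cells, stellate cells, endothelium and macrophages each use their own mixture of them. The RNAs of 8 annexins (Anxa1, Anxa2, Anxa3, Anxa4, Anxa5, Anxa6, Anxa7 and Anxa11) were examined in cultured mouse liver slices. They were found by their gene symbols among the 55487 genes of the count table, which lists 12 annexin genes in all. Anxa3 was selected on its low counts in the libraries with valproic acid, so its difference between the groups is given as a description without a test. The other 7 members were read from the same fit over all genes.

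The slices were precision-cut liver slices (PCLS) from livers of healthy adult male Balb/c mice, a preparation that keeps the cell types of the liver side by side in culture. There were 3 libraries from slices in regular medium without VPA (CTR) and 4 from slices in medium to which valproic acid had been added as its sodium salt at 2.5 mM (VPA), all collected on day 3 of culture. VPA inhibits class I histone deacetylases, and the comparison asks how the RNA of the slices differed in its presence. The libraries read the 3′ end of polyadenylated RNA, so counts scaled to library size (CPM) can be set side by side between genes without division by length.

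The CTR libraries held 1743675 to 4773750 counts on genes and the VPA libraries 1400887 to 3102450. A count was present on 17744 to 19756 genes in CTR and on 14359 to 16761 genes in VPA. A listed 0 allows up to 3 counts, which came to 0.591 CPM in the deepest library and to 2.41 CPM in the shallowest, a limit that covers counting error only and does not cover zeros such as those of VPA replicate 1 in 16 genes with at least 100 counts in every other library. The hepatocyte markers Alb, Apoa1, Ahsg and Fgb were abundant in both groups, with group means of 625 to 2328 CPM. Zeros were unevenly spread, since 2021 of the 10876 genes tested (18.58%) were at 0 in at least 1 VPA library and in no CTR library, against 130 (1.195%) the other way round. Mitochondrial genes took 14.5% to 27.7% of the counts in CTR and 23.9% to 32.5% in VPA, and the part of this difference in the annexin values was not tested. In bulk RNA, fewer cells of a type and less RNA per cell cannot be told apart. The study's methods define a biological repeat as another liver, while the labels tie no library to an animal, so p-values measure the spread between these libraries as labelled.

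The members lie at separate places in the mouse genome (GRCm38), and all are protein-coding. Anxa1 is on chromosome 19 from 20373428 to 20390944 on the − strand, Anxa2 on chromosome 9 from 69453620 to 69491795 on the + strand and Anxa3 on chromosome 5 from 96793339 to 96845966 on the + strand. Anxa4 is on chromosome 6 from 86736840 to 86793584 and Anxa5 on chromosome 3 from 36448923 to 36475894, both on the − strand. Anxa6 is on chromosome 11 from 54979108 to 55033445 and Anxa7 on chromosome 14 from 20455260 to 20480133, both on the − strand. Anxa11 is on chromosome 14 from 25842156 to 25886804 on the + strand. Of the genes that overlap a member, Gm42603, inside Anxa3 on the same strand, was the only one with any counts, 12 over all libraries together.

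The promoters of Anxa2 and Anxa5 are shown because these were the most abundant members by mean CPM in both groups and the count of Anxa2 relative to Anxa5 was lower in every VPA library. Each window runs from 250 bases before to 50 bases after the start of the gene as RefSeq gives it (GRCm38.p6), which also supplied the sequence. Of the 8 members, 6 had an entry in the collection of promoter windows used here, and Anxa3 and Anxa6 had none in it. Capitals mark the TATA box (TATAAA), the GC box (GGGCGG) and the AP-1 motif (TGAGTCA). The Anxa2 window is chr9:69453433-69453732 on the + strand and the Anxa5 window is chr3:36475838-36476137 on the − strand.
Anxa2: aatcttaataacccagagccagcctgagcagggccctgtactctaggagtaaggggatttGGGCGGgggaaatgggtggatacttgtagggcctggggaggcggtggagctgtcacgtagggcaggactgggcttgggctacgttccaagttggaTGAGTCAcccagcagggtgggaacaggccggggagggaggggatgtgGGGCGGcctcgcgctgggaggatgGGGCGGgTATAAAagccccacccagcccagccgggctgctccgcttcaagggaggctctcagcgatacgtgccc
Anxa5: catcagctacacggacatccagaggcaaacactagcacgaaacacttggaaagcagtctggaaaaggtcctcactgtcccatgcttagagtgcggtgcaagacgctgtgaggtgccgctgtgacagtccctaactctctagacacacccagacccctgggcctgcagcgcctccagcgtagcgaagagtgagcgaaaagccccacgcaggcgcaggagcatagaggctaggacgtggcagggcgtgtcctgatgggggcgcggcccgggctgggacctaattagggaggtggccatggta

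The Anxa2 window held the GC box at −190, −48 and −24, the AP-1 motif at −95 and the TATA box at −17, counted from the start of the gene to the first base of the motif and all on the strand of the gene, and its GC content was 63.67%. The matches do not overlap each other. The motifs searched on both strands were these 3, the CCAAT box (CCAAT), the CRE (TGACGTCA) and the E-box (CACGTG). Among all 32851 promoter windows in the table, 13.62% held the TATA box, 37.41% the CCAAT box, 35.66% the GC box, 5.202% the AP-1 motif, 1.79% the CRE and 7.15% the E-box, and the median GC content was 52.67%. None of these letters were found in the Anxa5 window, whose GC content was 60.33%. A match is a run of letters and not a measured binding site.

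Anxa3 encodes a small annexin known from neutrophils and from epithelial cells. It had 197, 102 and 210 CPM in CTR replicates 1 to 3 and 21.5, 16.6, 41.7 and 29.5 CPM in VPA replicates 1 to 4. Every VPA library lay below every CTR library, and the nearest values were VPA replicate 3 and CTR replicate 2. The means were 170 ± 58.8 CPM (SD, n = 3) in CTR and 27.3 ± 10.97 CPM (SD, n = 4) in VPA, so that VPA libraries held 16.1% of the CTR level, a difference of 6.20-fold. The fitted log2 fold change was −2.65 (standard error 0.379). These values rest on 383 to 518 counts per CTR library and on 33 to 54 counts per VPA library. The neutrophil markers had almost no counts, with 9 of 10 (S100a8, S100a9, Ly6g, Retnlg, Csf3r, Mpo, Ngp, Ltf and Camp) at 0 in every library and the summed level of the list at no more than 0.548 CPM in CTR and 0 in VPA. A listed 0 need not mean that a cell type was absent. The hepatocyte marker Asgr1 had counts only in CTR replicate 2 and VPA replicate 4, and the macrophage marker Adgre1 had none.

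**Figure D1:**
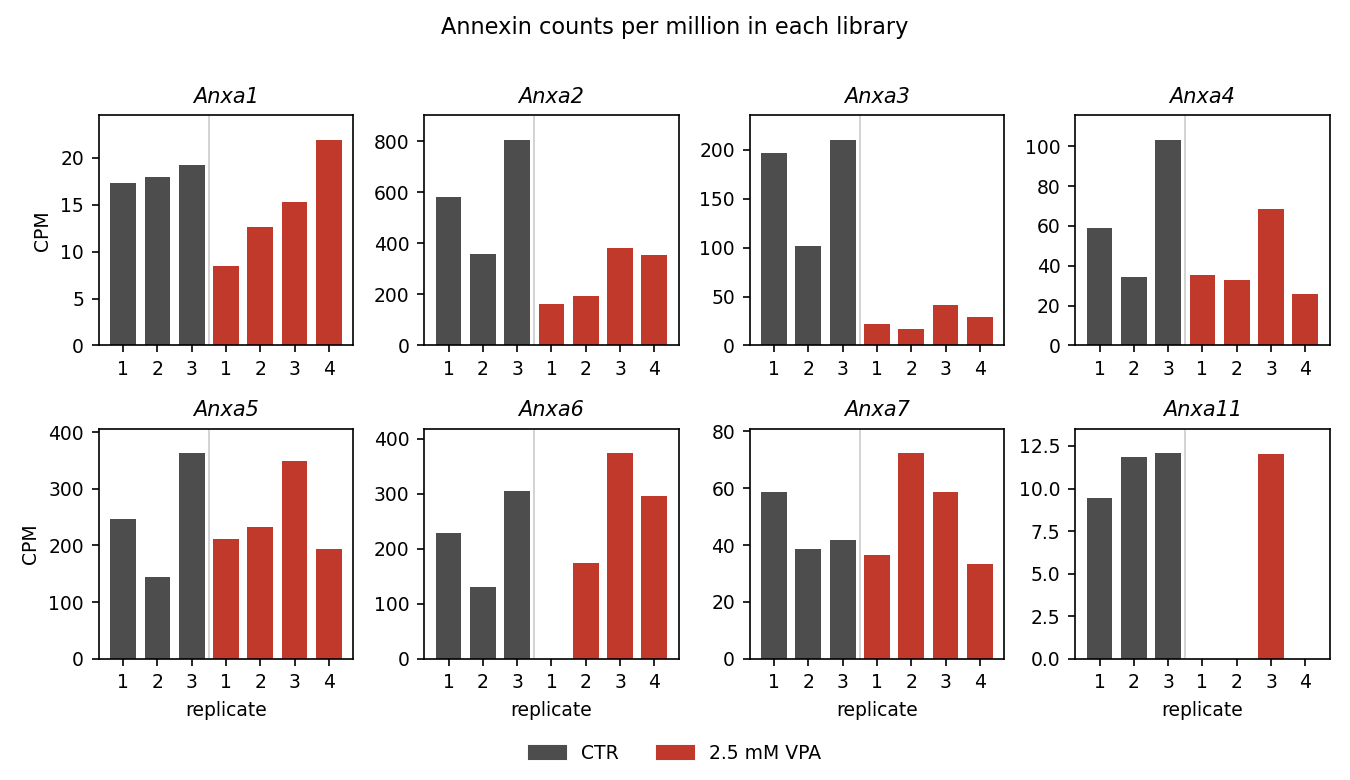
Scaled counts in CPM (y axis, from 0, its own scale for each gene) of the 8 annexins in CTR replicates 1 to 3 (grey bars) and VPA replicates 1 to 4 (red bars), 1 bar for each library. Anxa3 lies at 102 to 210 CPM in CTR and at 16.6 to 41.7 CPM in VPA, while the other members overlap between the groups and empty places for Anxa6 and Anxa11 are libraries listed at 0.

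In edgeR's quasi-likelihood test with Benjamini-Hochberg adjustment over the 10876 genes tested, 0 of the other 7 members had an adjusted p under 0.05, and 1, Anxa2, had an unadjusted p under 0.05. DESeq2 and limma-voom also called 0 of the 7. Over all genes tested, 0.00919% were called at that adjusted threshold, and 4.62% were lower at an unadjusted p under 0.05 (8.28% in either direction). DESeq2 called 1.01% of the 15261 genes to which it gave an adjusted p. All 8 members passed the filter on low counts. Anxa11 passed it through the CTR libraries, since 3 CTR libraries and 1 VPA library exceeded the minimum of 5.735 CPM, and Anxa6 exceeded it in 3 CTR and 3 VPA libraries. By the fitted value, 6 of the 7 lay lower in VPA and their median log2 fold change was −0.32, where 54.2% of all genes tested were lower and the median was −0.06. Without Anxa11, whose direction is tied to the filter, 5 of 6 were lower with a median of −0.20, and without the 1022 genes that passed in the same way, 4923 of the other 9854 genes tested were lower with a median of 0.00020. With single libraries left out, 4 to 7 of the 7 were lower. The median was −0.13 without VPA replicate 1, in which Anxa6 was listed at 0, −0.50 without VPA replicate 3 and −0.53 without VPA replicate 4. None of the 7 was without overlap between the groups, where 7.41% of all genes tested lay lower without overlap and 4.44% higher. Single members were also compared with a two-sided exact permutation test of the mean log2 CPM over the 35 ways to divide 7 libraries into 3 and 4, in which no p can be smaller than 0.0286. These were 7 tests, and their p-values were not adjusted.

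Anxa2, which with S100a10 forms a complex that links membranes to actin and serves as a docking place for plasminogen, was the most abundant annexin. It had 583, 356 and 805 CPM in CTR replicates 1 to 3 and 163, 196, 384 and 354 CPM in VPA replicates 1 to 4. The groups overlapped through CTR replicate 2, which lay below VPA replicate 3 and just above VPA replicate 4. The means were 581 ± 224 CPM (SD, n = 3) and 274 ± 111 CPM (SD, n = 4), which puts the VPA libraries at 47.1% of the CTR level. The log2 fold change was −1.09 (standard error 0.384, 95% interval −1.98 to −0.19), with an unadjusted p of 0.0237 and an adjusted p of 0.529 from edgeR. The exact permutation test gave p = 0.114. The difference was therefore not called after adjustment, at a threshold that 1 of the 10876 genes tested passed.

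Anxa4, an annexin of epithelia such as bile duct, had 58.7, 34.1 and 103 CPM in CTR replicates 1 to 3 and 35.3, 32.6, 68.2 and 25.7 CPM in VPA replicates 1 to 4. The lowest CTR library lay among the VPA libraries, and VPA replicate 3 lay above CTR replicates 1 and 2. The means were 65.3 ± 34.95 CPM (SD, n = 3) and 40.4 ± 19.0 CPM (SD, n = 4), a log2 fold change of −0.69 (standard error 0.458, 95% interval −1.75 to 0.38, edgeR adjusted p = 0.808, exact permutation p = 0.286). It was −0.23 without CTR replicate 3, −1.01 without CTR replicate 2 and −1.06 without VPA replicate 3.

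Anxa1, known for restraining phospholipase A2 and for signalling through formyl peptide receptors, was rare. It had 17.3, 17.9 and 19.2 CPM in CTR replicates 1 to 3 and 8.49, 12.6, 15.3 and 21.9 CPM in VPA replicates 1 to 4. The CTR libraries lay close together, 3 VPA libraries lay below them and VPA replicate 4 lay above them. The log2 fold change was −0.32 (standard error 0.43, 95% interval −1.32 to 0.68, edgeR adjusted p = 0.937, exact permutation p = 0.314), on 13 to 91 counts per library. It was −0.13 without VPA replicate 1 and −0.59 without VPA replicate 4.

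Anxa5, whose protein binds phosphatidylserine so tightly that it is used to stain dying cells, had 247, 145 and 362 CPM in CTR replicates 1 to 3 and 212, 232, 349 and 194 CPM in VPA replicates 1 to 4. All VPA values lay within the CTR range. The means were 251 ± 109 CPM (SD, n = 3) and 247 ± 69.9 CPM (SD, n = 4), a log2 fold change of −0.02 (standard error 0.335, 95% interval −0.80 to 0.76, edgeR adjusted p = 0.995, exact permutation p = 1). The direction of this value, like those of Anxa6 and Anxa7, turned when single libraries were left out.

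Anxa7, an annexin linked to the fusion of secretory vesicles, had 58.7, 38.6 and 41.7 CPM in CTR replicates 1 to 3 and 36.6, 72.3, 58.6 and 33.2 CPM in VPA replicates 1 to 4. The VPA libraries spread to both sides of the CTR libraries. The means were 46.3 ± 10.8 CPM (SD, n = 3) and 50.2 ± 18.5 CPM (SD, n = 4), a log2 fold change of 0.12 (standard error 0.331, 95% interval −0.65 to 0.89, edgeR adjusted p = 0.968, exact permutation p = 0.914).

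Anxa6, the large annexin with a doubled core that acts on endosomes and cholesterol transport, had 229, 131 and 304 CPM in CTR replicates 1 to 3. In VPA replicates 2, 3 and 4 it had 175, 373 and 295 CPM, and VPA replicate 1 was listed at 0. The libraries with counts overlapped between the groups. Every other library held 391 to 664 counts of Anxa6. It was 1 of 16 genes at 0 in VPA replicate 1 with at least 100 counts in every other library, and Polr2e, Dad1, Ndufa5 and Hdac2, genes that nearly every cell uses, were among them. The other libraries had 0 to 10 such genes. The log2 fold change was −0.07 (standard error 1.136, edgeR adjusted p = 0.996, exact permutation p = 0.857) with that library and 0.35 (standard error 0.390, edgeR adjusted p = 0.929) without it.

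Anxa11, an annexin that tethers RNA granules to lysosomes, had 9.46, 11.8 and 12.1 CPM in CTR replicates 1 to 3, on 24, 60 and 22 counts. VPA replicate 3 had 12.0 CPM on 15 counts, and VPA replicates 1, 2 and 4 were listed at 0. VPA replicate 3 lay within the CTR range and the others below it. The fitted log2 fold change was −1.94 (standard error 1.71, 95% interval −5.91 to 2.04, edgeR adjusted p = 0.893, exact permutation p = 0.114), and −7.86 without VPA replicate 3, a value that rests on how zeros enter the fit. Anxa11 was 1 of 207 genes (1.903% of the 10876 tested) that were at 0 in 3 or 4 VPA libraries and in no CTR library. The antisense gene Anxa11os had 0 counts in every library.

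**Figure D2:**
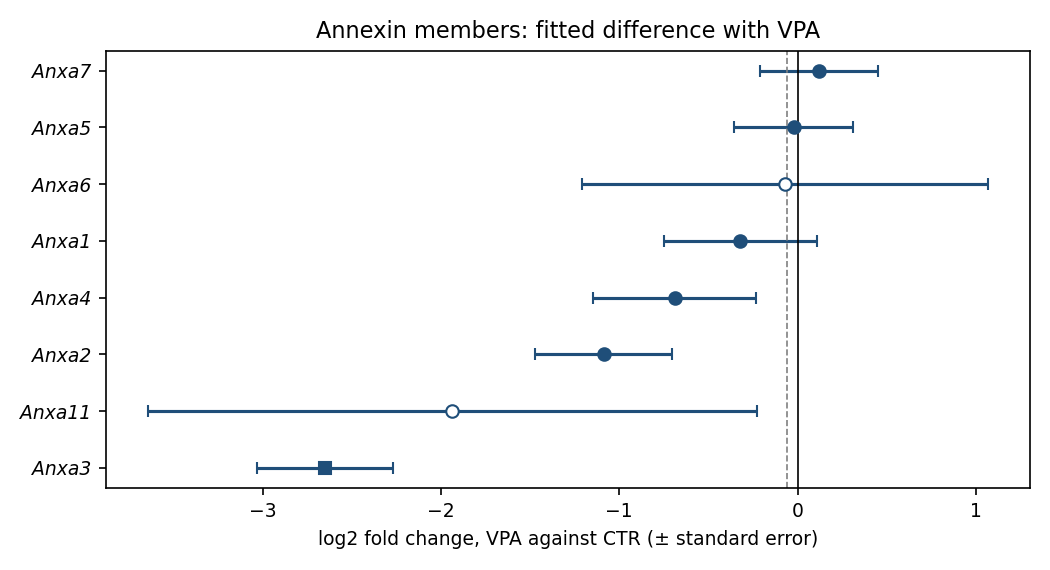
Fitted log2 fold change of VPA against CTR (x axis) for each annexin, with bars of 1 standard error, a solid line at 0 and a dashed line at the median of all genes tested (−0.06). The square is Anxa3 (−2.65), chosen for its low values, and open circles are Anxa6 and Anxa11, which had libraries listed at 0 and the widest bars.

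The other annexin genes were rare or without counts. Anxa9 had 18.9, 13.8 and 32.9 CPM in CTR replicates 1 to 3, 11.2 CPM in VPA replicate 3 and was listed at 0 in the other VPA libraries. All its VPA libraries lay below its CTR libraries, with a log2 fold change of −3.03 (standard error 1.63, edgeR adjusted p = 0.711). Anxa9 passed the filter on low counts through the CTR libraries, with 3 CTR and 1 VPA library past the minimum, so this order of the groups is not independent of the filter. It overlaps Mindy1 on the opposite strand, which had 510 counts over all libraries, and 6330562C20Rik on the same strand, which had 28. Anxa8 and Anxa13 had at most 5 and 4 counts in a library and were at 0 in all VPA libraries, and Anxa10 was at 0 throughout.

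The 8 members together made up 1399, 837 and 1857 CPM in CTR replicates 1 to 3 and 477, 737, 1302 and 954 CPM in VPA replicates 1 to 4. CTR replicate 2 lay inside the VPA range, and VPA replicate 1, the library with Anxa6 at 0, was lowest. By mean CPM the order in CTR was Anxa2, Anxa5, Anxa6, Anxa3, Anxa4, Anxa7, Anxa1 and Anxa11. Each stood above the next in all 3 CTR libraries, except that Anxa4 stood above Anxa7 in 1 of 3, while the ranges over libraries were apart only between Anxa7 and Anxa1 and between Anxa1 and Anxa11. In VPA the order was Anxa2, Anxa5, Anxa6, Anxa7, Anxa4, Anxa3, Anxa1 and Anxa11. Without VPA replicate 1, where Anxa6 was listed at 0, Anxa6 (281 CPM) came before Anxa5 (259 CPM). Anxa2 stood above Anxa5 in 2 of 4 VPA libraries, and no neighbours in that order had ranges apart.

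Shares of the annexin counts within a library do not depend on library scaling. In CTR replicates 1 to 3, Anxa3 made up 14.1%, 12.2% and 11.3% of the counts of the 8 members. In VPA replicates 1 to 4 it made up 4.52% (95% Wilson interval 3.24 to 6.28), 2.25% (1.73 to 2.93), 3.21% (2.45 to 4.18) and 3.09% (2.27 to 4.19), and these intervals cover counting error only. Every VPA share lay below every CTR share, as the choice of Anxa3 would give.

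Anxa2 made up 41.7% to 43.3% in CTR, and 34.1%, 26.5%, 29.5% and 37.1% in VPA replicates 1 to 4. Anxa5 made up 17.3% to 19.5% in CTR, and 44.5%, 31.6%, 26.8% and 20.3% in VPA replicates 1 to 4. The shares of both did not overlap between the groups, with Anxa2 lower and Anxa5 higher in VPA, although a share moves with those of the other members. With Anxa6 left out of the sum, Anxa2 made up 49.8% to 51.8% in CTR and 34.1% to 53.8% in VPA, where VPA replicate 4 lay above every CTR library, while Anxa5 made up 20.5% to 23.3% and 29.5% to 44.5%. With Anxa3, chosen for its low counts, left out instead, Anxa2 made up 48.5% to 48.9% in CTR and 27.2% to 38.3% in VPA, while Anxa5 made up 19.7% to 22.0% in CTR and 21.0% to 46.6% in VPA, so that VPA replicate 4 lay within the CTR range. With both Anxa3 and Anxa6 left out, Anxa2 made up 59.0% to 59.9% in CTR and 35.7% to 56.3% in VPA. Anxa5 then made up 24.0% to 27.0% in CTR and 30.9% to 46.6% in VPA, and neither share overlapped. The separation of either share thus depended on which members entered the sum. Anxa6 made up 15.6% to 16.4% in CTR, and 23.7%, 28.7% and 31.0% in VPA replicates 2, 3 and 4.

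**Figure D3:**
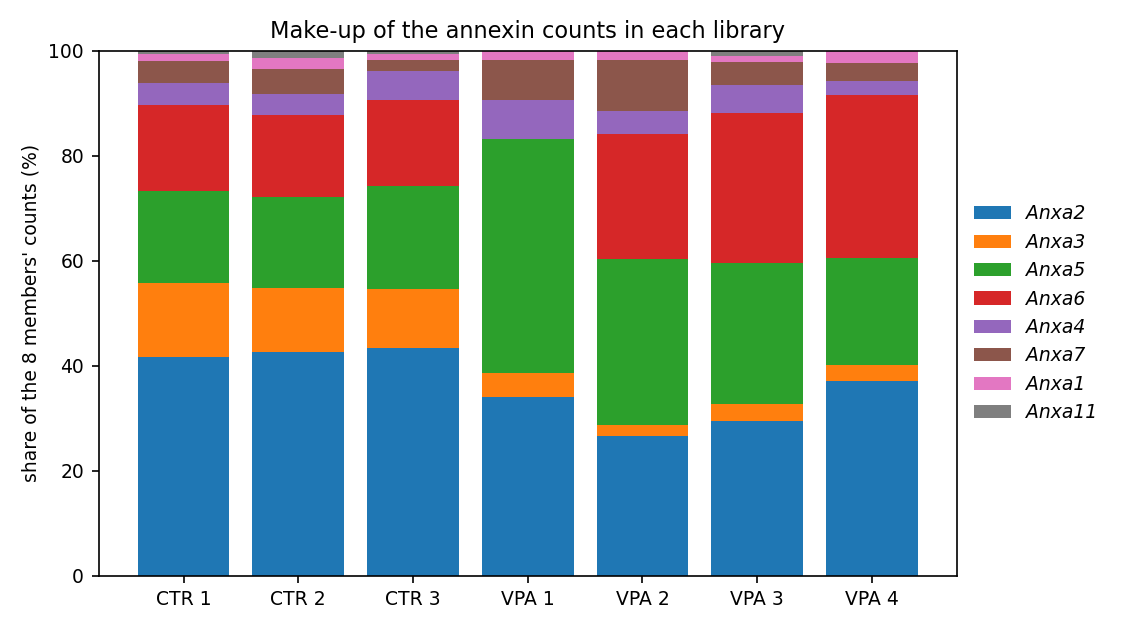
Share of the counts of the 8 annexins taken by each (y axis, percent, stacked from 0 to 100) in each of the 7 libraries (x axis). The CTR bars look alike, with Anxa2 at 41.7% to 43.3% and Anxa3 at 11.3% to 14.1%, whereas the VPA bars differ among themselves and all hold less Anxa3, at 2.25% to 4.52%.

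Ratios of counts between members of the same library were also free of library scaling. The pairs were chosen after their values were seen and have no test. Anxa2 stood at 2.36, 2.46 and 2.22 times Anxa5 in CTR replicates 1 to 3 and at 0.766, 0.841, 1.10 and 1.82 times Anxa5 in VPA replicates 1 to 4. The ratio of Anxa4 to Anxa5 was 0.236 to 0.284 in CTR and 0.132 to 0.195 in VPA. Both ratios were lower in every VPA library than in every CTR library, while the CPM of neither Anxa2 nor Anxa4 separated the groups. Both rest on the same Anxa5 counts, and the share of other gene pairs that separate the groups in this way was not counted. The ratio of Anxa6 to Anxa5 overlapped, at 0.840 to 0.927 in CTR and at 0.751, 1.07 and 1.52 in VPA replicates 2, 3 and 4, with Anxa6 listed at 0 in VPA replicate 1. Anxa3 stood at 0.261 to 0.337 times Anxa2 in CTR and at 0.0832 to 0.133 times Anxa2 in VPA, a difference that the choice of Anxa3 would give.

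CTR and VPA libraries share the slice culture numbers 71, 72 and 74, and the labels do not say what the number marks. Between libraries with the same number, Anxa3 in VPA stood at 19.9%, 15.0% and 16.3% of CTR for numbers 71, 72 and 74. Anxa2 stood at 47.7%, 60.8% and 54.9%. Anxa6 stood at 123%, 129% and 133%, on the libraries in which it had counts. Anxa4 stood at 66.2%, 43.7% and 95.6%. Anxa3, which was chosen for its fall, Anxa2 and Anxa4 were lower at each number, Anxa4 only slightly at number 74, and Anxa6 was higher. How many of all genes tested keep the same direction at each number was not counted, so this is a description only. The direction varied for Anxa5, at 96.4%, 78.7% and 161%, for Anxa7, at 141%, 56.6% and 187%, and for Anxa1, at 79.5%, 126% and 70.3%. Anxa11 stood at 99.8% for number 71 and was listed at 0 in VPA for 72 and 74.

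**Figure D4:**
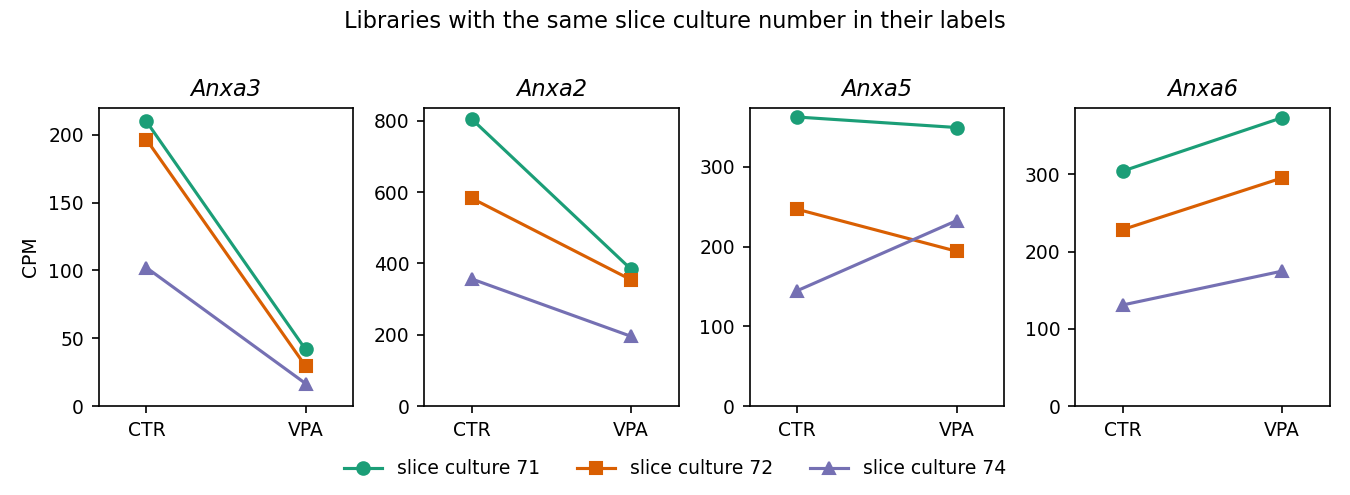
Scaled counts in CPM (y axis, from 0) of Anxa3, Anxa2, Anxa5 and Anxa6 in CTR and VPA libraries that carry the same slice culture number, with a line for each of the numbers 71, 72 and 74. Lines for Anxa3 and Anxa2 run down at each number, those for Anxa6 run up and those for Anxa5 cross. VPA replicate 1 (number 73) has no CTR library with its number and is not drawn.

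The genes most like Anxa3 were sought among 6391 genes tested with a mean of at least 20 CPM, by the root mean square difference of log2 CPM profiles over the 7 libraries, each centred on its own mean. The nearest were the histone genes Hist1h2ao and Hist1h2ap, at 0.339 and 0.343. Their counts were almost the same in every library, so reads may be shared between them and their values are uncertain. They were followed by Cyfip1 (0.455), a regulator of actin branching, and by the mitochondrial transfer RNAs mt-Ts2 (0.480) and mt-Tv (0.483). Cyfip1 had 56.3, 31.3 and 74.6 CPM in CTR replicates 1 to 3 and 7.18, 6.76, 33.7 and 11.3 CPM in VPA replicates 1 to 4. Among the members, Anxa2 came closest, at place 40 with 0.781, and Anxa4 was at place 273 with 1.05.

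Partners of the annexins were read from 6 fixed lists of 77 genes, the other annexins included, of which 49 were tested. Among these, 32 were lower and 17 higher by the fitted value, and edgeR, DESeq2 and limma-voom called 0. In edgeR's test 4 of the 49 had an unadjusted p under 0.05, all lower, where 4.62% of all genes tested were lower at that threshold and 8.28% passed it in either direction. In the lists below, a gene is said to have passed the filter through CTR when all 3 CTR but fewer than 3 VPA libraries exceeded its minimum, so that its direction is tied to the filter.

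S100 proteins bind annexins as pairs. Of 11 listed, 6 were tested, 5 were lower and 1 was higher by the fitted value, with a median log2 fold change of −0.87. S100a10, the partner of Anxa2, had 106 ± 40.5 CPM (SD, n = 3) in CTR and 81.0 ± 28.8 CPM (SD, n = 4) in VPA, a log2 fold change of −0.38 (standard error 0.363, edgeR adjusted p = 0.903). Anxa2 stood at 5.94, 5.11 and 5.38 times S100a10 in CTR replicates 1 to 3 and at 3.66, 2.08, 3.44 and 4.79 times in VPA replicates 1 to 4. This ratio was lower in every VPA library, but it has no test and the share of other gene pairs that separate the groups was not counted. S100a11, the partner of Anxa1, had 315 ± 111 CPM and 219 ± 40.4 CPM (log2 fold change −0.52, edgeR adjusted p = 0.671). Anxa1 stood at 0.0441 to 0.0831 times S100a11 in CTR and at 0.0323 to 0.122 times in VPA, with overlap. S100a6 had 268 ± 151 CPM and 116 ± 48.7 CPM, with a log2 fold change of −1.22 (standard error 0.486) at an unadjusted p of 0.0384 and an edgeR adjusted p of 0.573. S100a1 had 59.9, 49.3 and 73.5 CPM in CTR replicates 1 to 3 and 45.7 and 48.2 CPM in VPA replicates 1 and 3, and VPA replicates 2 and 4 were listed at 0. The fitted log2 value of −1.40 (standard error 1.405) rests on those zeros. It passed the filter through CTR, and without it 4 of 5 lay lower and the median was −0.52.

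The membrane repair list holds genes that reseal the plasma membrane beside the annexins. Of its 20 genes tested, 14 were lower and 6 higher by the fitted value, with a median of −0.18. Capn2, the catalytic subunit of m-calpain, a protease that calcium switches on, had 181, 191 and 173 CPM in CTR replicates 1 to 3 and 104, 105, 118 and 147 CPM in VPA replicates 1 to 4. Its VPA libraries all lay below its CTR libraries, with a log2 fold change of −0.62 (standard error 0.164) at an unadjusted p of 0.00582 and an edgeR adjusted p of 0.351. Its regulatory subunit Capns1 had 442 ± 52.1 CPM and 313 ± 68.3 CPM (log2 fold change −0.50, edgeR adjusted p = 0.561). Chmp4b and Chmp3, which build the ESCRT-III filament, had log2 fold changes of −0.14 and −0.28.

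Genes of phosphatidylserine exposure and recognition, the pathway that Anxa5 is used to read, were evenly divided, with 7 lower and 7 higher of 14 tested and a median of 0.0036, or 6 and 7 with a median of 0.16 without Stab1, which passed the filter through CTR. Mfge8, a bridge between phosphatidylserine and phagocytes, had 375 ± 117 CPM in CTR and 534 ± 168 CPM in VPA (log2 fold change 0.51, edgeR adjusted p = 0.763). Axl, a receptor of dying cells, had a log2 fold change of 0.48, Tmem30a, a subunit of lipid flippases, of 0.43 and Pros1, a ligand of Axl and its relatives, of −0.15.

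The plasminogen system had 5 genes lower and 1 higher of 6 tested, with a median of −0.77, or 3 and 1 with a median of −0.42 without Plgrkt and Serpinf2, which passed the filter through CTR. Serpinf2, Cpb2 and Serpine2 had log2 fold changes of −1.22, −1.11 and 0.53. Plg, the gene of plasminogen itself, was not tested and had counts only in VPA replicate 4 (28.7 CPM). The formyl peptide receptors and eicosanoid enzymes, on which Anxa1 is known to act, were mostly rare or at 0, with summed levels of 28.0 to 30.3 CPM in CTR and 22.2 to 43.0 CPM in VPA. Fpr2, the receptor best known for Anxa1, had counts only in CTR replicate 2 (6.31 CPM) and VPA replicate 3 (6.42 CPM). Fpr1, Fpr3, Alox5, Alox15 and Ltc4s were at 0 in every library, and the 2 genes tested, Ptgs1 and Ptgs2, had log2 fold changes of 0.20 and 0.44. Pla2g4a and Ptges were too rare to be tested, with means of 4.66 and 1.15 CPM in CTR and 1.32 and 3.21 CPM in VPA.

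Markers of the cell types in the slices were read from 9 lists of 86 genes, of which 47 were tested, 28 lower and 19 higher by the fitted value. edgeR called 0 of them, and DESeq2 called 5, where it called 1.01% of all genes. In edgeR's test 7 of the 47 had an unadjusted p under 0.05, all lower, where 4.62% of all genes tested were lower at that threshold. These 7 include Tek, which passed the filter through CTR. The list of activated hepatic stellate cells (HSCs) marks the matrix-forming cells of liver. Of 10 tested, 9 were lower by the fitted value, with a median of −0.99 and none at 0 in every library, or 8 of 9 with a median of −0.95 without Pdgfrb, which passed the filter through CTR. Their summed level was 2934 to 5225 CPM in CTR and 1523 to 2298 CPM in VPA, without overlap. Col1a1, Col1a2, Col3a1 and Sparc, its most abundant genes, had log2 fold changes of −1.66, −1.58, −1.51 and −1.04. The part of these cells in the values of Anxa3 and Anxa2 was not tested.

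The cholangiocyte markers, of the bile duct cells, had 3 lower and 2 higher of 5 tested and a median of −0.16, with sums of 434 to 721 CPM in CTR and 276 to 787 CPM in VPA, and Krt23 was at 0 throughout. Within this list Cldn4, a tight junction protein, had 197, 167 and 105 CPM in CTR replicates 1 to 3 and 18.3, 45.8, 45.0 and 35.5 CPM in VPA replicates 1 to 4 (log2 fold change −2.11, edgeR adjusted p = 0.142), while Spp1, Sox9 and Epcam had log2 fold changes of −0.16, 0.39 and −0.42. The endothelial markers had 6 lower and 2 higher of 8 tested and a median of −0.52, or 3 and 2 with a median of −0.28 without Cdh5, Fcgr2b and Tek, which passed the filter through CTR, with sums of 238 to 271 CPM and 69.2 to 270 CPM. Kdr, Pecam1 and Lyve1 had log2 fold changes of −0.28, −0.61 and 0.20. Cdh5 was listed at 0 in VPA replicates 1 and 2 and had a fitted value of −2.45 (standard error 1.336, edgeR adjusted p = 0.719). The part of both cell types in the annexin values was not tested.

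The hepatocyte markers had 2 lower and 6 higher of 8 tested and a median of 0.35, with overlapping sums of 5299 to 11674 CPM in CTR and 2797 to 11248 CPM in VPA. The quiescent HSC markers had 6 lower and 3 higher of 9 and a median of −0.26, or 5 and 3 with a median of −0.13 without Des, which passed the filter through CTR, with sums of 231 to 486 CPM and 188 to 486 CPM, and Gfap was at 0 throughout. Among them Rgs5, Ecm1 and Reln had log2 fold changes of 0.21, 0.29 and −0.26. The macrophage markers had 2 lower and 5 higher of 7 and a median of 0.37, or 1 and 5 with a median of 0.51 without C1qb, which passed the filter through CTR, with sums of 258 to 391 CPM and 291 to 535 CPM, and Adgre1 and Marco were at 0 throughout. Cd68, C1qa, Csf1r and C1qc had log2 fold changes of 0.65, −0.48, 0.16 and 1.14. No lymphocyte or mesothelium marker was tested, with sums of at most 6.53 and 19.6 CPM in any library. Among the most abundant were Cd3e, Cd4 and Ms4a1 of the first and Wt1, Lrrn4, Msln and Upk1b of the second.

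**Figure D5:**
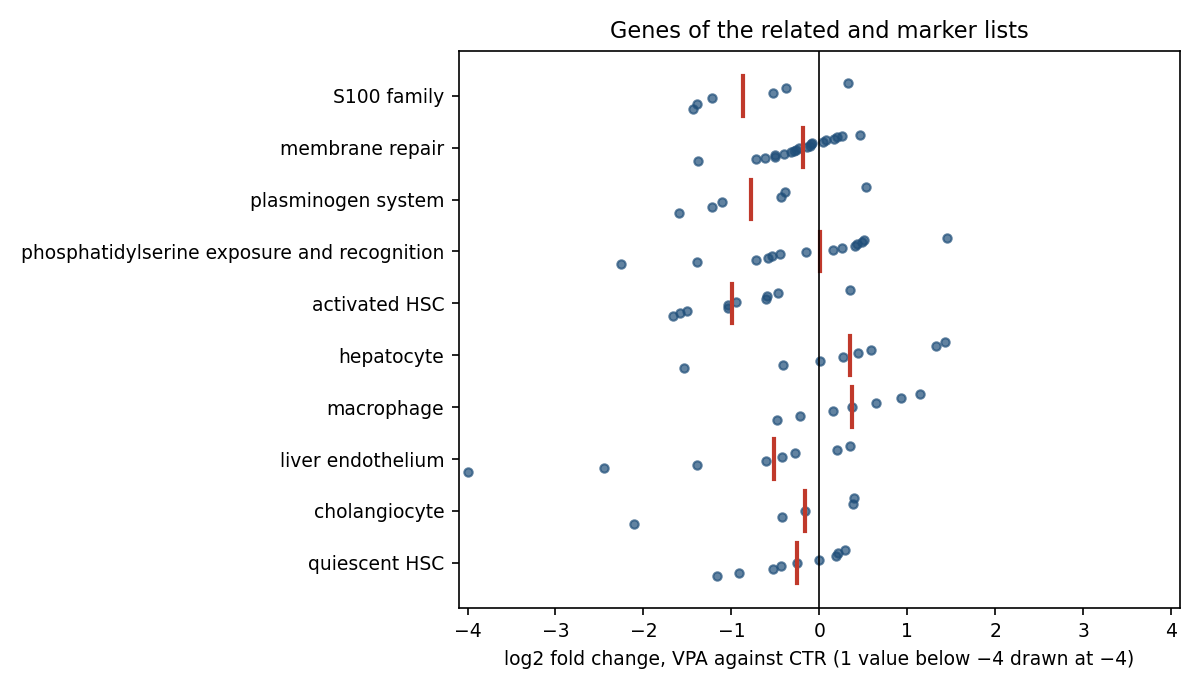
Log2 fold change of VPA against CTR (x axis) for each gene tested (points) in 4 lists of annexin partners and 6 lists of cell type markers, with a red line at the median of the list and a black line at 0. The medians of the S100 family (−0.87), plasminogen system (−0.77) and activated HSC (−0.99) lists lie furthest to the left, and are −0.52, −0.42 and −0.95 without the genes that passed the filter through CTR, and 1 endothelial gene, Tek, at 0 in all VPA libraries, is drawn at the left edge.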

How the data were processed

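RNA of 3 CTR and 4 VPA cultures of mouse PCLS was sequenced by the authors as QuantSeq 3′ libraries, mapped to GRCm38 (mm10) with STAR and assembled with StringTie, as the paper and the submitters' processing notes state. The authors deposited raw counts per Ensembl gene, 1 column for each library, without normalization. The counting program, its use of strand and its treatment of reads mapping to several places are not given in the sources used here. Groups came from the sample titles.

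Symbols and coordinates were taken from GENCODE M21, which named 55227 of 55487 genes. Counts were analysed in R 4.3.3 with edgeR 4.0.16 (filterByExpr, TMM, robust quasi-likelihood fit with condition as its term, Benjamini-Hochberg adjustment, threshold 0.05). CPM is relative to the TMM-scaled library size, and log2 CPM has a prior count of 2. Exact permutation tests went through all splits with numpy 2.4.6, Wilson intervals used scipy 1.17.1, and figures matplotlib 3.10.9. Libraries of a group differed by more than counting noise (chi-square per degree of freedom 13.0 to 24.3), and each was counted as 1 replicate. The code was tested on simulated counts.

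Named genes were the 8 members, the other annexins, genes overlapping them, the 4 most abundant genes and any called gene of each list, and the 5 genes most like Anxa3. A few genes that this rule names are not reported here. The members, lists and tests were chosen with earlier results of these data known. Alternatives were DESeq2 1.42.0, limma-voom (limma 3.58.1), other normalizations and filters, a fit without robust dispersion, a replicate block, another threshold, another prior count and leaving out each library.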

Additional observations from a re-analysis of the deposited data

Results flagged for a closer look

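Anxa11 had 12.0 CPM in VPA replicate 3 while the other 3 VPA libraries were listed at 0, which set this library far from the rest of its group. For the same reason its share of the annexin counts, 0.925% in VPA replicate 3 and 0% in the others, stood apart. These were 2 of 17 measures of the VPA group examined in this way, both from the same 15 counts. About 1 in 20 groups (a share of 0.05) stands apart in this way by chance where values are not tied, a share that does not apply here, since with 3 libraries at 0 any other value stands apart.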

How the results depend on the processing

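Of the 7 members that were tested, 0 were called in each of the 17 alternatives, with Anxa6 and Anxa11 not testable when genes under 10 counts in any library were dropped. Apart from the other threshold, for which no share was counted, these alternatives called 0% to 1.01% of all genes. Both blocks and the fits without CTR replicate 1, CTR replicate 2, VPA replicate 1 or VPA replicate 3 called no gene at all. The log2 fold change of Anxa3 ran from −2.77 to −2.56 over 9 alternatives and from −2.93 to −2.45 with each library left out. That of Anxa2 ran from −1.25 to −0.88 and from −1.35 to −0.80, with a lowest adjusted p of 0.208, reached when genes under 10 counts in any library were dropped. With libraries left out, Anxa1 ran from −0.59 to −0.13 and Anxa4 from −1.06 to −0.23. Anxa5 (−0.02) turned to 0.069 with limma-voom and ran from −0.31 to 0.31 with libraries left out. Anxa6 (−0.07) was at −1.95 with limma-voom and ran from −0.50 to 0.35 with libraries left out, where 0.35 was without VPA replicate 1, and Anxa7 (0.12) ran from −0.11 to 0.31. Anxa11 ran from −7.86 without VPA replicate 3 to −1.48. The count of 7 members without overlap was 1 (Anxa2) with library totals in place of TMM, and 0 to 2 with libraries left out. It was 1 without CTR replicate 2 (Anxa2), 2 without VPA replicate 3 (Anxa2 and Anxa11) and 1 without VPA replicate 4 (Anxa1). The share of all genes without overlap was not counted at these settings. Leaving out a library makes separation easier for every gene, so these counts are not a result about the members. Marker genes called numbered 5 with DESeq2, 1 with no filter and 3 with the filter of 10 counts, where these settings called 1.01%, 0.0383% and 0.541% of all genes. The cause of these changes was not tested, apart from the libraries left out.

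Whether equal numbers pair libraries was checked by correlating their deviations from the group means. Slice culture 71 gave 0.107, 72 gave 0.0256 and 74 gave 0.0546, while replicate number 1 gave −0.0539. Replicate numbers 2 and 3 gave 0.0546 and 0.107, but they join the same libraries as slice cultures 74 and 71 and are no second check. Low correlations over all genes tested cannot exclude pairing, and the main fit assumed none. VPA replicate 1 is alone in slice culture 73 and VPA replicate 4 alone in replicate number 4, so it does not enter the difference fitted with that block. With the replicate block by slice culture, 0 of the 7 members and 0 of the 10876 genes tested were called. Anxa3 was at −2.56 (standard error 0.169, against 0.379 without a block) and Anxa2 at −0.88 (0.132 against 0.384). Anxa5 was at 0.10 and Anxa6 at 0.36. With the block by replicate number 0 members and 0 of all genes tested were called. Anxa3 was at −2.70, Anxa2 at −1.25, Anxa5 at 0.14, Anxa6 at −1.01 and Anxa1 at −0.62. The median of the 7 members was −0.17 with the first block, −0.62 with the second and −0.57 with limma-voom.

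The rarest members rest on few counts, at most 60 in a library for Anxa11 and 91 for Anxa1. Why VPA replicate 1 lists 16 otherwise well-counted genes at 0 was not tested.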
